A study of Arabidopsis thaliana with 6 samples.

Results

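The beta-glucosidase (BGLU) genes of Arabidopsis thaliana encode family 1 glycoside hydrolases. The members described here are the rows of the deposited table whose symbol is BGLU followed by a number, 38 genes of 33602 in all. The selection leaves out 5 locus codes, 3 of which carry a BGLU symbol (BGLU10, BGLU18 and BGLU26). The rule uses names alone, but the family was chosen by its fold changes and calls in this same comparison, so the counts of changed members below are a description. The tested leaves came from the pub2pub4 double mutant, which has lesions in the U-box ubiquitin ligase genes PUB2 and PUB4, and were set against wild type. Plants of both genotypes were 25 days old, were labelled mock and grew under long days, with 3 libraries of leaf messenger RNA for each genotype. The labels state neither what the mock treatment was nor the accession or alleles. They also do not say whether replicates were separate plants, and the p-values cover only the spread among the libraries, which may be technical.

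Family 1 beta-glucosidases release glucose from small molecules that plants store in glucosylated form, such as hormones, lignin precursors, coumarins, flavonols and glucosinolates. UDP-glycosyltransferases run the opposite reaction, and the glucoside and its hydrolase are commonly kept apart, in vacuole, cell wall, plastid or endoplasmic reticulum (ER), until a stimulus or cell damage brings them together. In Brassicaceae some members fill ER bodies, rod-shaped compartments known from seedlings, roots and wounded leaves.

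Libraries held 20572341 to 20732799 expected counts in pub2pub4 and 20506882 to 20595904 in wild type. Levels are given as CPM, counts scaled to library size by the TMM method. Transcripts of the targeted genes were low in the libraries labelled pub2pub4, with PUB2 at 0.504 ± 0.108 CPM and PUB4 at 3.22 ± 0.746 CPM, against 9.05 ± 1.44 and 21.03 ± 2.36 CPM in wild type (SD, n = 3 each). The summed level of 4 mesophyll markers was 17467 to 21380 CPM in pub2pub4 and 19699 to 21133 CPM in wild type, most of it from RBCS1A. None of the 4 was called, but the near-identical chlorophyll-binding protein genes LHCB1.1 and CAB3, between which reads may be split, were low in pub2pub4 1 and 2. LHCB1.1 was at 402, 425 and 783 CPM in pub2pub4 and 937, 937 and 1012 CPM in wild type. CAB3 was at 1471, 1543 and 2465 CPM in pub2pub4 and 2319, 2605 and 2528 CPM in wild type. The part of this split among the mutant libraries in the results on members was not tested. Markers of seed and of flower and pollen summed to under 1 CPM in each pub2pub4 library, and to at most 2.02 CPM in wild type. Epidermis markers summed to 577 to 648 CPM in pub2pub4 and 610 to 653 CPM in wild type. Sums for guard cells were 55.7 to 62.5 and 60.9 to 68.8 CPM, and for trichomes 6.56 to 8.45 and 8.25 to 9.73 CPM. Phloem companion cell markers summed to 536 to 571 and 498 to 567 CPM. Of these SULTR2;1 was called higher (log2 0.75, edgeR adjusted p 0.00616), the only call among all cell type markers. The library pub2pub4 3 stood apart from the other mutant libraries in several of the results that follow. Among tested members with a positive fold change it held the lowest mutant value for 10 of 15, and among all tested genes with a positive fold change it did so for 41.3%.

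Of the 38 members, 18 had enough counts to be tested, and in pub2pub4 leaves BGLU11, BGLU46, BGLU33 and BGLU25 rose. These 4 passed edgeR's quasi-likelihood test at a Benjamini-Hochberg adjusted p under 0.05 over 19019 genes, of which 2.49% were called higher. By the same test 0 members fell, against 1.97% of all tested genes. BGLU26, which the selection leaves out, did fall (log2 -0.63, edgeR adjusted p 0.0166), so the count of 0 depends on the selection. At an unadjusted p under 0.05 there were 6 higher members, where 10.3% of all genes were higher, and 1 lower member, BGLU9, where 9.41% were lower. DESeq2 called 6 members higher, adding BGLU45 and BGLU47, where 3.95% of all genes were higher, and 0 lower, where 3.72% were. The median log2 fold change of the 18 tested members was 0.23, and that of all tested genes was 0.0062. All 3 mutant libraries lay above all 3 wild-type libraries for 8 members, as for 13.4% of all tested genes, and below them for 1, as for 12.7%. A gene had to reach a minimum count in at least 3 libraries to be tested, so the 18 are the better expressed part of the family. BGLU45 reached it only in the pub2pub4 libraries, so its higher values and its DESeq2 call are no support for a rise. In bulk leaf RNA a change in the number of cells of a type and a change in RNA per cell cannot be told apart.

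The number of members called higher depended on which libraries were used. Without pub2pub4 3 it was 8 of 20 tested members, with BGLU45, BGLU47, BGLU30 and BGLU22 added, where 3.93% of all genes were higher. BGLU30 and BGLU22 reached the minimum count only in pub2pub4 1 and 2, where they were high. They entered that fit through those libraries alone, so their calls in it are no support for a rise. Without pub2pub4 1 it was 2, without pub2pub4 2 it was 1, without wild type 1 it was 1, without wild type 2 it was 0 and without wild type 3 it was 2. The share of all genes called higher in those 5 fits was 1.73%, 0.224%, 0.338%, 0.219% and 1.71% in the same order. No member was called lower in any of the 6 fits, where the share of all genes called lower was 1.09% without pub2pub4 1, 0.25% without pub2pub4 2, 2.36% without pub2pub4 3, and 0.349%, 0.229% and 1.72% without wild type 1, 2 and 3. In a fit with a replicate block 4 members were called higher, where 2.57% of all genes were. BGLU33 was called in 5 of the 6 fits, BGLU46 and BGLU25 in 2 and BGLU11 in 1.

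**Figure D1:**
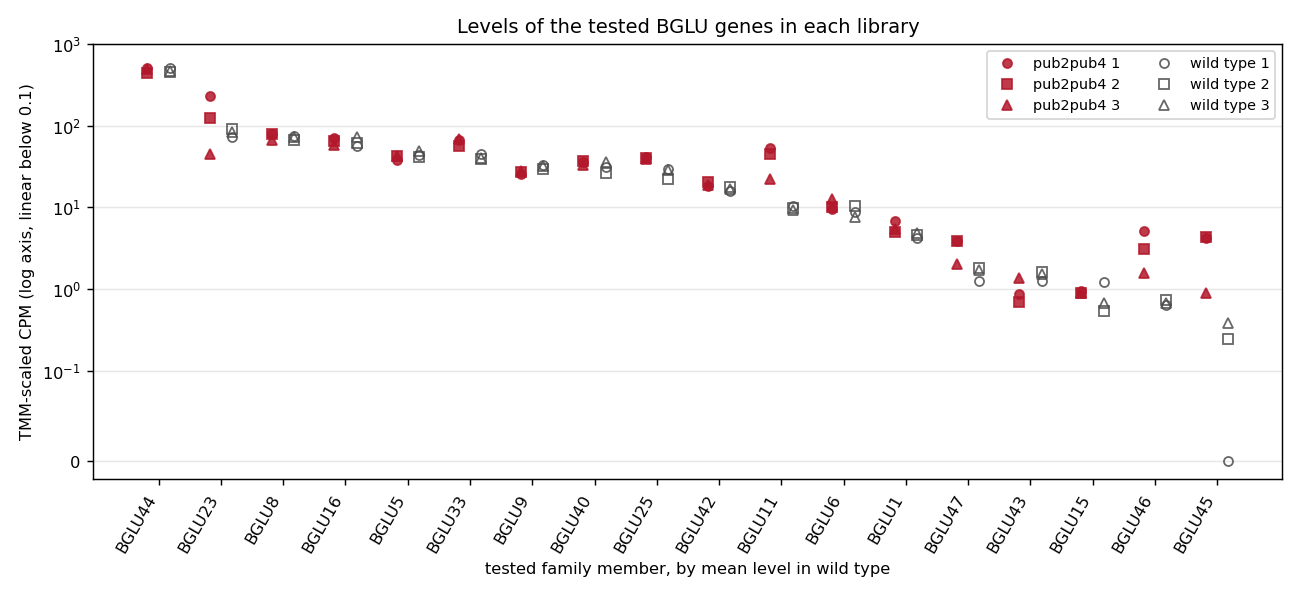
Level of each of the 18 tested members in each library, in TMM-scaled CPM on a log axis that is linear below 0.1, with pub2pub4 libraries as filled red symbols left of the open grey wild-type symbols. BGLU44 lies above the rest in all libraries, and BGLU11, BGLU46 and BGLU45 show mutant values above all wild-type values, with pub2pub4 3 the lowest mutant point.

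Levels within the family differed widely. Per kilobase of transcript, BGLU44 stood at 253 ± 20.5 CPM per kilobase in pub2pub4 and 251 ± 14.8 in wild type (SD, n = 3 each). BGLU44 is known for beta-mannosidase activity. Next in wild type came BGLU23, BGLU8 and BGLU16 with 45.5 ± 4.69, 43.2 ± 2.63 and 36.0 ± 5.12 CPM per kilobase (SD, n = 3 each). BGLU23 and BGLU8 did not differ beyond their spread. BGLU5 followed with 28.8 ± 2.71 CPM per kilobase, and BGLU33, BGLU9, BGLU40 and BGLU25 with 15.3 to 19.7 in wild type. All members together summed to 1203, 1010 and 945 CPM in pub2pub4 1, 2 and 3, and to 937, 876 and 929 CPM in the wild-type libraries. BGLU44 made up 42.0%, 43.1% and 52.9% of that sum in the mutant libraries and 50.5% to 54.0% in wild type. The left-out family genes BGLU18, TGG1 and TGG2 were above BGLU44, with means of 836, 4674 and 4161 CPM in wild type. The place and share of BGLU44 thus depend on the selection.

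BGLU11 (AT1G02850), for which no substrate is named here, rose in pub2pub4. Its level was 52.6, 45.4 and 22.5 CPM in pub2pub4 and 10.3, 9.75 and 9.30 CPM in wild type. All mutant libraries were above the wild-type range, and pub2pub4 3 lay lower than the other mutants. The log2 fold change was 2.04 ± 0.33 (SE, edgeR adjusted p 0.0359). Without pub2pub4 3 the adjusted p was 7.26e-05. Over the 5 fits that each left out another library the call was lost, with adjusted p up to 0.159, and with no filter on low counts it was 0.0597. The coding sequence of BGLU11 is 63.5% identical to that of its closest member, BGLU1, and has no run of 50 bases in common with another member or a left-out family gene.

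BGLU45, BGLU46 and BGLU47 form the monolignol group of the family. BGLU45 and BGLU46 hydrolyse glucosides of monolignols, the lignin precursors, and are known mainly from stems. BGLU46 (AT1G61820) was at 5.06, 3.06 and 1.57 CPM in pub2pub4, against 0.626, 0.738 and 0.671 CPM in wild type, with no overlap. It rose by a log2 fold change of 2.24 ± 0.44 (SE, edgeR adjusted p 0.0340). The adjoining gene BGLU45 (AT1G61810) was at 4.20, 4.34 and 0.883 CPM in pub2pub4 and 0, 0.246 and 0.383 CPM in wild type. These values rest on 88, 88 and 18 expected counts in the mutant and 0, 5 and 8 in wild type. Its log2 fold change of 3.87 ± 0.92 (SE) was the largest among tested members but did not pass (edgeR adjusted p 0.0761), while DESeq2 gave an adjusted p of 1.65e-05. No wild-type library reached the minimum count, so BGLU45 was tested only through the mutant libraries, where it was high. A gene kept in that way can hardly show a fall, so its rank and its DESeq2 call are a description. BGLU47 (AT4G21760) was at 3.87, 3.87 and 2.04 CPM in pub2pub4 and 1.23, 1.79 and 1.68 CPM in wild type. Its log2 fold change was 1.05 ± 0.29 (SE, edgeR adjusted p 0.0850; DESeq2 0.0460). For all 3 genes each mutant library was above each wild-type library, and pub2pub4 3 was the lowest of the mutants. BGLU47 overlaps the opposite-strand gene AT4G21770 over 434 bases in the TAIR10.1 annotation. That partner was at 20.1 CPM in pub2pub4 and 18.5 CPM in wild type. The expected counts of BGLU47 were not whole, at 81.09, 78.5 and 41.68 in pub2pub4 and 25.62, 36.32 and 35.1 in wild type. No source used here names the strand setting of the counts, so BGLU47 is uncertain. The same holds for BGLU45, which lies opposite the long non-coding RNA genes AT1G08433, over 252 bases, and AT1G08437, over 190 bases. Neither of these RNA genes has a row in the deposited counts, and the expected counts of BGLU45 were whole. BGLU45 and BGLU46 are 77.9% identical in coding sequence and have no run of 50 bases in common.

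BGLU33 and BGLU25 rose less but evenly in the mutant libraries. BGLU33 (AT2G32860, also named BG2) releases abscisic acid, the drought hormone, from its glucose ester in the vacuole. It was at 66.2, 56.2 and 68.3 CPM in pub2pub4 and 45.1, 38.5 and 40.5 CPM in wild type, and here pub2pub4 3 was the highest library. The log2 fold change was 0.62 ± 0.09 (SE, edgeR adjusted p 0.0166), and the call was lost only without wild type 2 (0.0814). BGLU25 (AT3G03640) is grouped with the members that carry an ER retention signal. Its level was 41.7, 40.3 and 38.7 CPM in pub2pub4 and 29.3, 22.4 and 28.3 CPM in wild type, a log2 fold change of 0.59 ± 0.10 (SE, edgeR adjusted p 0.0234). The groups did not overlap for either gene. The closest members in coding sequence are BGLU30 for BGLU33, at 56.0% identity, and BGLU19 for BGLU25, at 64.9%.

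**Figure D2:**
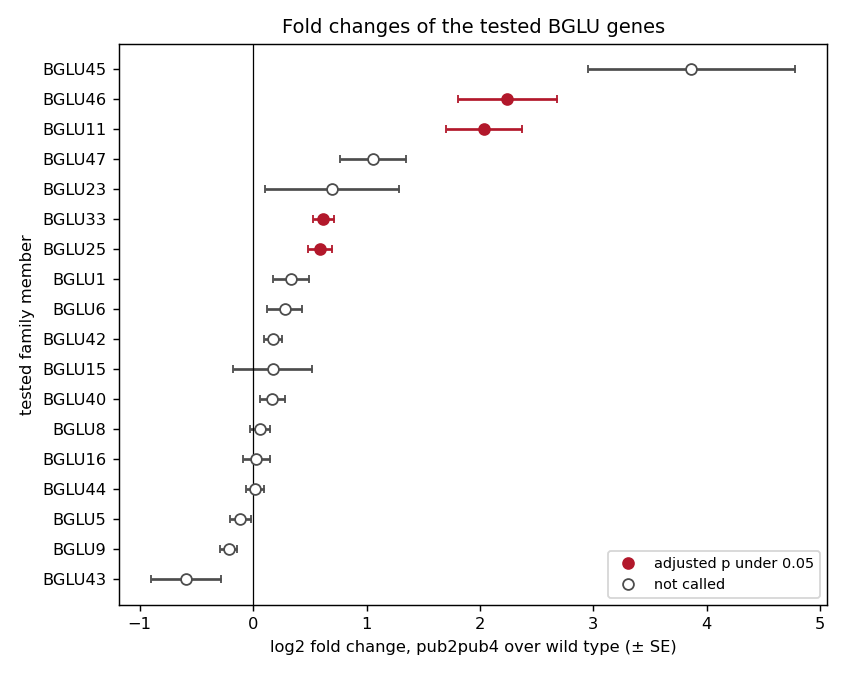
Log2 fold change of each of the 18 tested members, pub2pub4 over wild type, with SE bars from the edgeR fit over 19019 genes (3 libraries per genotype). Filled red points mark the 4 members with an adjusted p under 0.05, BGLU46, BGLU11, BGLU33 and BGLU25, all to the right of 0.

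The promoter windows of 3 called members, BGLU11, BGLU33 and BGLU25, are shown, and that of BGLU45, which did not pass, because it had the largest log2 fold change among tested members. BGLU45 was tested only through its mutant libraries, as given above. They are examples and not all members with higher mutant values. Each runs from 250 bases before to 50 bases after the annotated gene start in the RefSeq annotation of TAIR10.1. The table itself names TAIR10 as its genome in the submitters' processing notes and holds no positions, so genes were matched by locus code. All 4 genes are on the plus strand. The windows are chr1:630124-630423 for BGLU11, chr1:22829671-22829970 for BGLU45, chr2:13939937-13940236 for BGLU33 and chr3:880738-881037 for BGLU25. Capitals mark matches, on either strand, to ACGTG (the core of the abscisic acid response element), CCGAC (the dehydration response element core), TTGAC (the W-box core of WRKY factors) and GAGAC (a sulphur response core). The sequences are given 5′ to 3′.
BGLU11: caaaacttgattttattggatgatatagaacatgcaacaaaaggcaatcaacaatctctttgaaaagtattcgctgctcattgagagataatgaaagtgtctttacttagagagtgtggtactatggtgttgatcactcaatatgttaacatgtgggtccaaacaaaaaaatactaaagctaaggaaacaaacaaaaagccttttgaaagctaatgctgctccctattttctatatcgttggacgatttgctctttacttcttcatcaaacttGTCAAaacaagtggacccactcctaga
BGLU45: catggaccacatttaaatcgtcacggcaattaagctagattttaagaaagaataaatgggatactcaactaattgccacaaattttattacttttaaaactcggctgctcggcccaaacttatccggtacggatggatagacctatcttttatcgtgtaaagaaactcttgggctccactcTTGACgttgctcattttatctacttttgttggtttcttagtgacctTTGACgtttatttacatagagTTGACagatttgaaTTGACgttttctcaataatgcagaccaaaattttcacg
BGLU33: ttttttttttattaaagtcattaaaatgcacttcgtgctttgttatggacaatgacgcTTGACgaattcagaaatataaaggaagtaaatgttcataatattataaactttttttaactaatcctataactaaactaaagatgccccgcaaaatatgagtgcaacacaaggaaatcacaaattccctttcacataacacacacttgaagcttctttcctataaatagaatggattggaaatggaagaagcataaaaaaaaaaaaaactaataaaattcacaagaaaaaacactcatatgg
BGLU25: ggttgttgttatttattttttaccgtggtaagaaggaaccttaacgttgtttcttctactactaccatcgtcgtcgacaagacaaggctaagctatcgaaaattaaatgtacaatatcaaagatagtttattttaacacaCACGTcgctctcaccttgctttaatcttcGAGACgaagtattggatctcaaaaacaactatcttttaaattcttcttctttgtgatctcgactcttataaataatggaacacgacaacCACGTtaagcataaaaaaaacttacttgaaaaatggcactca
BGLU25 holds 2 matches to ACGTG, as at least that many are held by 10.7% of 27443 promoters of protein-coding genes, and 1 to GAGAC. BGLU45 holds 4 matches to TTGAC, a number reached by 1.11% of those promoters, while BGLU11 and BGLU33 hold 1 each. That share is for 1 of 4 motifs in a window picked by its fold change, so it is a description. No match to CCGAC lies in these 4 windows. Over all 38 member promoters, 11 hold ACGTG, 7 hold CCGAC, 18 hold TTGAC and 14 hold GAGAC. Among all protein-coding genes the shares are 26.7%, 15.05%, 50.5% and 32.8% in that order. A CACGTG counts as 2 matches to ACGTG, and no capitals of different motifs overlap in the windows shown. These matches describe letters and say nothing of binding.

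The ER body group was spread widely among the mutant libraries. BGLU23 (AT3G09260), known as PYK10, is the main beta-glucosidase of root and seedling ER bodies and can hydrolyse the coumarin glucoside scopolin and indole glucosinolates. It was at 231, 123 and 44.5 CPM in pub2pub4 and 73.3, 90.2 and 82.9 CPM in wild type. The libraries pub2pub4 1 and 2 thus lay above the wild-type range and pub2pub4 3 lay below it, and the log2 fold change of 0.69 ± 0.59 (SE) did not pass (edgeR adjusted p 0.593). The opposite-strand gene AT3G09250 overlaps BGLU23 over 138 bases and was at 39.9 CPM in pub2pub4 and 33.5 CPM in wild type. BGLU22 (AT1G66280), a root enzyme for scopolin named after its values were seen, had 43, 13 and 6 counts in pub2pub4 and 5, 5 and 3 in wild type. Its log2 fold change without a filter on low counts was 2.22 (edgeR adjusted p 0.163), and without pub2pub4 3 it was 2.65 (0.0431). BGLU22 entered the latter fit only through pub2pub4 1 and 2, where it was high. BGLU22 shares 6.55% of its runs of 50 bases with its tandem neighbour BGLU21, which had 3 counts in pub2pub4 2 and 0 in the other libraries.

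Root markers were measured beside these genes. The phosphate transporter gene PHT1;1 was at 8.36, 2.099 and 0.0490 CPM in pub2pub4 and 0.434, 0.0984 and 0.127 CPM in wild type, highest in the library where BGLU23 and BGLU22 were highest. RHD6 was at 0 in all libraries, and COBL9, EXP7 and PRX44, further root hair and root genes, were at or under 0.143 CPM in each. CASP1, of the root endodermis, was at 0.191, 0.345 and 0.245 CPM in pub2pub4 and 0.289, 1.03 and 0.623 CPM in wild type. The 7 root markers summed to 37.5 to 49.6 CPM in pub2pub4 and 26.5 to 40.9 CPM in wild type, most of it from SCR, which leaves also express. SCR was the only one of the 7 with enough counts to be tested and was not called, and their part in the BGLU23 and BGLU22 values was not tested.

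BGLU30 (AT3G60140), also named DIN2, is induced by darkness and sulphur deficiency and has been linked with BGLU28 to glucosinolate breakdown. It had 123, 184 and 2 expected counts in pub2pub4, against 1, 3 and 5 in wild type. In CPM these were 5.87, 9.08 and 0.0981 in the mutant and 0.0482, 0.148 and 0.240 in wild type. pub2pub4 1 and 2 were far above every other library, while pub2pub4 3 lay within the wild-type range. With only 2 libraries above the minimum count the gene was not tested. Without a filter its log2 fold change was 5.05 (edgeR adjusted p 0.267), and without pub2pub4 3 it was 5.62 (0.00121). BGLU30 entered the latter fit only through pub2pub4 1 and 2, where it was high. BGLU28 (AT2G44460) had 8, 5 and 1 counts in pub2pub4 and 9, 6 and 8 in wild type and was not tested.

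**Figure D3:**
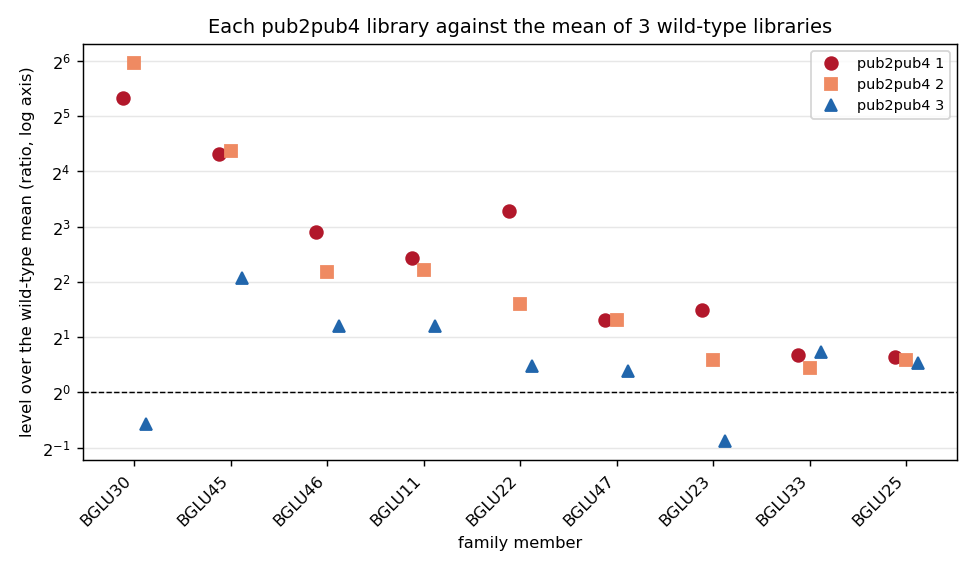
Level of 9 members in each pub2pub4 library divided by the mean of the 3 wild-type libraries, on a log axis, where the dashed line marks equality. pub2pub4 3 (blue triangle) is the lowest of the mutant points for BGLU30, BGLU45, BGLU46, BGLU11, BGLU22, BGLU47, BGLU23 and BGLU25, falls below 1 for BGLU30 (0.676) and BGLU23 (0.542), and is the highest for BGLU33 (1.65).

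Relative to the wild-type mean, BGLU11 stood at 5.38, 4.65 and 2.30 times in pub2pub4 1, 2 and 3. BGLU46 stood at 7.46, 4.51 and 2.31 times and BGLU45 at 20.03, 20.7 and 4.21 times in the same libraries. BGLU25 was even, at 1.56, 1.51 and 1.45 times. The SD over libraries was larger in pub2pub4 than in wild type for 12 of 18 tested members, and for 56.6% of all tested genes.

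The remaining tested members did not pass. BGLU44 was at 505, 435 and 499.9 CPM in pub2pub4 and 506, 451 and 469 CPM in wild type, a log2 fold change of 0.014 ± 0.081 (SE, edgeR adjusted p 0.949). BGLU9, the member nearest to a fall, was at 25.6, 27.1 and 28.1 CPM in pub2pub4 and 32.5, 29.3 and 32.0 CPM in wild type, with all mutant libraries lower. Its log2 fold change was -0.21 ± 0.07 (SE, edgeR adjusted p 0.158), and 13.9% of its runs of 50 bases also occur in other family genes. BGLU43 was at 0.860, 0.691 and 1.37 CPM in pub2pub4 and 1.25, 1.62 and 1.53 CPM in wild type (log2 -0.59 ± 0.31 SE, edgeR adjusted p 0.346), and its groups overlapped.

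BGLU1 and BGLU42 had mutant libraries all above wild type without passing. BGLU1 was at 6.83, 4.98 and 5.44 CPM in pub2pub4 and 4.19, 4.58 and 4.89 CPM in wild type (log2 0.34 ± 0.16 SE, edgeR adjusted p 0.288). BGLU42, known from roots for release of coumarins under iron deficiency and for induced resistance, was at 18.0, 20.3 and 18.6 CPM in pub2pub4 and 15.9, 17.5 and 17.0 CPM in wild type (log2 0.18 ± 0.08 SE, edgeR adjusted p 0.289). BGLU6, linked to flavonol glucosylation, had a log2 fold change of 0.28 ± 0.15 (SE) and BGLU40 had 0.17 ± 0.11 (SE). BGLU8 was at 0.06 ± 0.09, BGLU16 at 0.03 ± 0.12 and BGLU5 at -0.11 ± 0.09 on the same scale, with overlapping groups. BGLU15, for breakdown of flavonol bisglycosides, was at 0.883 to 0.955 CPM in pub2pub4 and 0.541 to 1.20 CPM in wild type. Of the 18 tested members 7 had a log2 fold change under 0.2 in size.

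Among the 20 members that were not tested, 8 had no count in any library (BGLU3, BGLU4, BGLU12, BGLU13, BGLU19, BGLU20, BGLU24 and BGLU29). A count of 0 allows up to 3 counts, or 0.143 to 0.148 CPM per library, for counting error only. Besides BGLU30 and BGLU22, 10 members had counts too low to test, with a mean of at most 0.371 CPM in either genotype. They were BGLU2, BGLU7, BGLU14, BGLU17, BGLU21, BGLU27, BGLU28, BGLU31, BGLU32 and BGLU41. The opposite-strand RNA gene AT5G54569 overlaps BGLU41 over 2600 bases and was at 2.64 CPM in pub2pub4 and 2.49 CPM in wild type. The expected counts of BGLU41 were not whole. BGLU12 and BGLU13, at 96.1% identity the closest pair of coding sequences in the family, were both at 0.

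Many members lie side by side in the genome, and neighbours did not always differ between genotypes in the same way. With at most 1 gene between them, members formed 8 runs. BGLU45 and BGLU46 on chromosome 1 were both higher in every mutant library than in wild type. In the run of BGLU27, BGLU16 and BGLU30 on chromosome 3, BGLU16 was at 57.9 to 70.8 CPM in pub2pub4 and 55.8 to 73.4 CPM in wild type, beside the values of BGLU30 given above. BGLU43 and BGLU44, adjoining on chromosome 3 with 82.3% identity, were far apart in level: BGLU43 stood at 0.647 CPM per kilobase in pub2pub4 and 0.976 in wild type, beside the values of BGLU44 above. The run of BGLU15, BGLU28, BGLU29 and BGLU17 on chromosome 2 was low throughout, and BGLU15 was its only tested member.

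Genes that act with these enzymes were read from 8 lists of related pathways. In the list of sulphur deficiency genes 4 rose among 13 tested genes, 9 did not pass and 0 fell. By the same edgeR test 2.49% of all tested genes were called higher and 1.97% lower. The list had a median log2 fold change of 0.36. SULTR4;2, which exports sulphate from the vacuole, was at 26.2, 25.3 and 22.8 CPM in pub2pub4 and 14.1, 15.5 and 16.6 CPM in wild type (log2 0.69 ± 0.09 SE, edgeR adjusted p 0.0123). APR1, for sulphate reduction, had a log2 fold change of 0.66 (edgeR adjusted p 0.0219), and LSU1, a gene induced by low sulphur, 1.80 (0.0332). The 4 calls held in 1 to 3 of the 6 leave-one-out fits. BGLU28, a sulphur deficiency gene of the family, was low in all libraries, as given above.

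In the list of darkness and sugar starvation genes, named in part as DIN2 is, 3 of 14 fell, 0 rose and 11 did not pass, with a median of -0.15. Of all tested genes edgeR called 1.97% lower and 2.49% higher. DIN10, for a raffinose synthase family protein, was at 162, 155 and 163 CPM in pub2pub4 and 241, 262 and 239.7 CPM in wild type (log2 -0.63 ± 0.06 SE, edgeR adjusted p 0.00583). SEN5 fell by 0.75 and DRM2 by 0.46 on the log2 scale (edgeR adjusted p 0.0083 and 0.0166). DIN10 and SEN5 were called in each of the 6 leave-one-out fits, and DRM2 in 4.

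No gene of the ER body and PYK10 complex list was called by edgeR (0 of 15, with 0 at an unadjusted p under 0.05), and DESeq2 called 0. Of all tested genes edgeR called 2.49% higher and 1.97% lower, and DESeq2 called 3.95% and 3.72%. At an unadjusted p under 0.05 in edgeR, 10.3% of all tested genes were higher and 9.41% lower. The list had a median log2 fold change of 0.23, and 12 of 15 were positive, where 9793 of all 19019 tested genes were. JAL23, a jacalin-related lectin, had the smallest p (log2 0.54, edgeR adjusted p 0.397). Without pub2pub4 3, 3 of the 15 were called higher, where 3.93% of all tested genes were, against 2.49% with all libraries. The lectin gene JAL22, picked once its values were known, was at 44.3, 28.2 and 7.40 CPM in pub2pub4 and 14.5, 13.5 and 13.0 CPM in wild type. As for BGLU23, pub2pub4 1 and 2 were above wild type and pub2pub4 3 below it. PBP1 and JAL33 had the same order, but the list did not share it throughout. For TSA1, JAL35 and NAI2 only pub2pub4 1 was above the wild-type range. NAI2 was at 61.9, 35.2 and 29.6 CPM in pub2pub4 and 36.6, 36.8 and 34.4 CPM in wild type. The log2 fold change of JAL23 was 0.25 without pub2pub4 1 and 0.63 without pub2pub4 3.

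Of the genes for making, storing and moving the abscisic acid glucose ester, the substrate of BGLU33, UGT75B1 rose among 6 tested (log2 0.56, edgeR adjusted p 0.0441) and 5 did not pass. Its adjusted p was 0.0706 in the fit with a replicate block and 0.0605 with library totals alone. Fold changes in this list went both ways, with 4 positive and 2 negative. DESeq2 called 1 of these genes higher and 1 lower, where 3.95% and 3.72% of all tested genes were. UGT71B6 was lower in every mutant library than in wild type (log2 -1.09, edgeR adjusted p 0.0525). In the monolignol list CCOAOMT1, a methyltransferase of lignin precursor synthesis, rose among 15 (log2 0.34, edgeR adjusted p 0.0325) and 14 did not pass. The list's median was -0.06. In the flavonol list UGT78D1, a flavonol rhamnosyltransferase, rose among 6 (log2 0.42, edgeR adjusted p 0.0285), with all 6 fold changes positive. The coumarin list had 0 of 3 tested genes called by edgeR, 1 with an unadjusted p under 0.05. That gene, the exporter gene ABCG37, was at 5.40, 2.47 and 0.490 CPM in pub2pub4 and 0.434, 0.443 and 0.767 CPM in wild type (log2 2.33, edgeR adjusted p 0.205), and DESeq2 called it (0.0139). Among 10 cell wall glycosidase genes of other families, BXL1 and BXL2, for beta-xylosidases, fell by 0.43 and 0.73 on the log2 scale (edgeR adjusted p 0.0337 and 0.0180) and 8 did not pass. Beside the counts of these lists, edgeR called 2.49% of all tested genes higher and 1.97% lower, and 10.3% were higher at an unadjusted p under 0.05. Of the calls in these lists, BXL2 held in 4 of the 6 leave-one-out fits, UGT75B1 and UGT78D1 in 2, and CCOAOMT1 and BXL1 in 1.

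**Figure D4:**
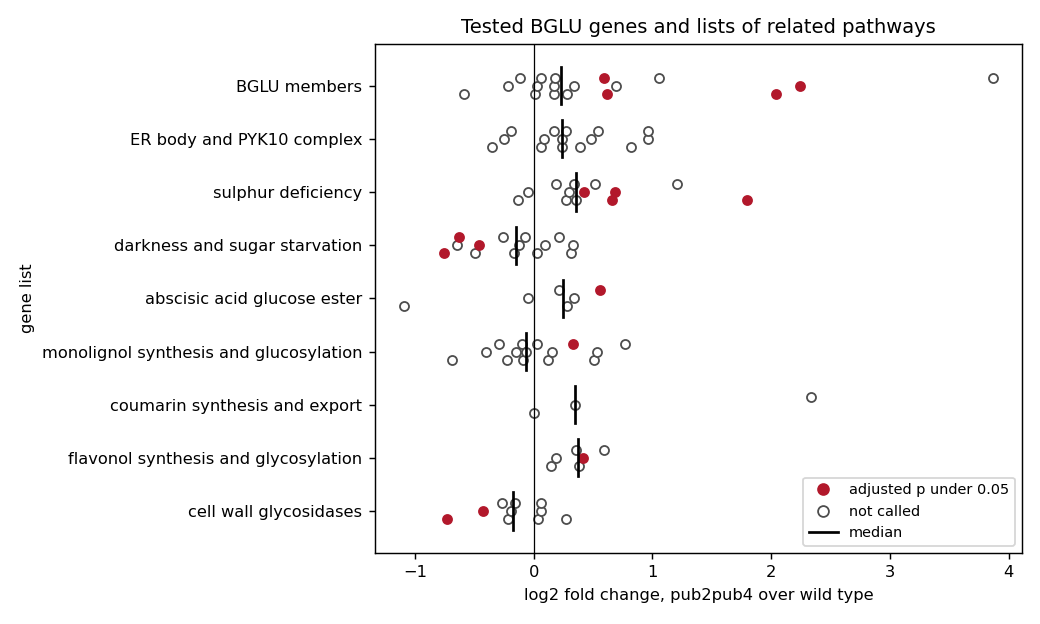
Log2 fold changes, pub2pub4 over wild type, of tested BGLU members and of the tested genes of 8 related lists, with called genes as filled red points and the median of each row as a black bar. Called members and called sulphur deficiency genes lie right of 0, and called genes of the darkness and cell wall glycosidase lists lie left of it.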

How the data were processed

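The deposited table gives expected counts, which are the authors' estimated reads per gene and need not be whole (95.1% of values were), with a transcript length per gene, per the file headers. The submitters' processing notes list TAIR10 as genome and, with no role stated, RSEM 2.1.30 and TopHat2 2.1.0. Strand setting, annotation release and filters were not stated there. Reads of overlapping or near-identical genes may therefore be split or shared.

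Counts were then rounded, and edgeR 4.0.16 was run in R 4.3.3. Genes were kept by filterByExpr (minimum count 10, minimum total 15) and scaled by TMM. A robust quasi-likelihood fit with genotype as the only term was run over 19019 genes, two-sided, with Benjamini-Hochberg adjustment and a threshold of 0.05. The SE is the size of the log2 fold change over the root of F. The script was tested on simulated data. DESeq2 1.42.0, median-of-ratios factors, library totals alone, 2 other filters, the replicate block and each library left out were alternatives. Depth was 20506882 to 20732799 expected counts per library.

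The members and lists were chosen with earlier results of these data known. Genes named are called members, members with a mean of at least 1 CPM, and up to 3 called genes per list (or else the gene with the smallest p). Other genes were named after their values were seen. 1 further promoter sequence is not reported here.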

Additional observations from a re-analysis of the deposited data

How the results depend on the processing

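With each library left out in turn, the number of genes called ranged from 86 to 1210 (848 with all libraries). The members called higher ranged from 0 to 8 (4 with all), and the members called lower stayed at 0, with 18 or 20 members tested. In the same fits 0.219% to 3.93% of all tested genes were called higher and 0.229% to 2.36% lower. The 8 include BGLU30 and BGLU22, which entered that fit only through pub2pub4 1 and 2. DESeq2 called 1460 genes. The replicate numbers were not taken as pairs: deviations from the genotype means correlated at 0.134, 0.058 and 0.156 for replicates 1, 2 and 3, although each library correlated best with its own number. A fit with the replicate block called 1066 genes and 4 members, as many members as without it, and among the genes named UGT75B1 lost its call. The cause of these changes was not tested. The direction of BGLU44 reversed with library totals alone (-0.0016), without pub2pub4 1 (-0.025), without pub2pub4 3 (-0.020) and without wild type 2 (-0.028), over a leave-one-out range of -0.028 to 0.077, and that of BGLU16 without pub2pub4 1 (-0.042), without wild type 1 (-0.054) and without wild type 2 (-0.0046), over a range of -0.054 to 0.147. Both lie within their SE of 0. The 20 members that were not tested did not reach the minimum count in enough libraries, and the part of depth in this was not tested.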

Other observations

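The 5 family genes left out of the member list were measured in the same libraries. BGLU26 (PEN2), a myrosinase of pre-invasion defence, was at 124, 131 and 156 CPM in pub2pub4 and 205, 229.7 and 203 CPM in wild type, and it fell by 0.63 on the log2 scale (edgeR adjusted p 0.0166). The other 4 did not pass. BGLU18, an ER body enzyme that releases abscisic acid, was at 1757, 691 and 791 CPM in pub2pub4 and 978, 1004 and 526 CPM in wild type. The myrosinase genes TGG1 and TGG2 had log2 fold changes of 0.32 and 0.36, and BGLU10, in anthocyanin glucosylation, had 0.48.

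Of 74 tested UDP-glycosyltransferase genes, whose products form glucosides, edgeR called 11 higher and 0 lower, where 2.49% and 1.97% of all tested genes were. DESeq2 called 14 higher and 3 lower, where 3.95% and 3.72% of all tested genes were. With p not adjusted (under 0.05), 23 were higher and 5 lower, where 10.3% of all tested genes were higher and 9.41% lower. The median log2 fold change was 0.21. Of 13 tested beta-galactosidase (BGAL) genes, 0 were called by edgeR and 1, a lower one, by DESeq2, beside the same shares of all genes. With p not adjusted (under 0.05) 1 was higher and 2 were lower, and the median was -0.14. Neither family was tested against the BGLU members.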
